A study of Mus musculus with 4 samples.

Results

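The 10 genes described here belong to the MHC class I antigen presentation pathway, from the proteasome that cuts peptides to the molecule that shows them at the cell surface. They were chosen by name, and their probes were found on the arrays through the RefSeq transcript that each probe was designed against. This gave 12 probes on 31 spots of each array for all 10 genes, out of 55619 probes for 37042 genes or unnamed transcripts. Gene expression was measured on 4 arrays of 1 colour, 1 for each combination of genotype and treatment, with RNA of primary chondrocytes from 6-day-old mice on a C57BL/6J background. The control cells (control hereafter) were Rela fl/fl, in which the gene for the NF-κB subunit Rela carries loxP sites on both alleles, and the other cells were Prrx1-Cre;Rela fl/fl (cKO), in which Cre is driven by the Prrx1 promoter, active in limb mesenchyme and the cells that descend from it. Cells of each genotype were cultured for 3 days with 10 ng/mL TNF-α (TNF hereafter) or without it. No condition has a replicate. A model of genotype and TNF without their interaction would leave 1 residual degree of freedom and was not fitted, the interaction could not be tested, and every difference below is one between 2 arrays, including any that came from the culture or the hybridisation.

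MHC class I molecules present fragments of a cell's own proteins to CD8+ T cells and natural killer cells. Peptides are cut in the cytosol by the proteasome, carried into the endoplasmic reticulum by the transporter TAP, and loaded with the help of tapasin onto a heavy chain bound to beta 2 microglobulin. Almost all nucleated cells carry the pathway at some level, and interferons and TNF are known to raise it, through NLRC5, interferon regulatory factors and NF-κB.

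Signals are given as the intensity of a probe divided by the 75th percentile of all transcript signals on that array, and a difference is one of log2 signals. Signals of different probes cannot be set against each other, so values are read across the 4 arrays within a gene. From the probes printed 10 times, the spread of spots within an array was scaled to that of a difference between 2 single spots. Its SD was 0.086 for signals of 1 and over, 0.18 for those of 0.1 to 1 and 0.33 for those under 0.1. A difference beyond 2 of these SDs is called past the spot spread below. It covers the measurement of single spots, and not the spread between hybridisations or cultures. The same limit was used for means over several spots, as for H2-K1, Tap1 and B2m, for which it is wider than their own measurement gives. Parts of 3 arrays carried bright patches, areas where many neighbouring spots were brighter there than on any other array, which held 7.17% to 10.7% of the spots, and 1.04% on the cKO-labelled array with TNF. Of the probes that stand for the 10 genes, those of B2m, Tap2, Tapbp, Psmb8, Psmb9 and Psmb10 had no spot in a patch.

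The identity of the cells and of the arrays was checked first. All 10 chondrocyte markers were well above background on every array, with Col2a1, the main cartilage collagen, at 594, 607, 582 and 607 (in the order control, control with TNF, cKO, cKO with TNF). The probe for Rela read 28.3, 34.7, 33.9 and 40.2 in the same order, so the label cKO did not go with a lower Rela signal, and its place relative to the floxed exons was not determined here. The arrays are therefore called cKO-labelled below. Xist was well above background only on both control arrays, and the Y-linked Ddx3y differed between the genotypes by 1.49 without and 1.71 with TNF, with the cKO label higher, so sex and genotype cannot be told apart. All 10 genes of a list of known TNF responses had log2 differences above 0 with TNF in each genotype, and 9 of them on the cKO-labelled arrays after quantile normalization and under normexp. Under the cKO label 6 of the 10 were lower past the spot spread without TNF, as were 13.2% of all genes, and 1 by 2-fold, beside 4.14%, at a median of -0.42. With TNF all 10 were lower past it, as were 11.0% of all genes, and 6 by 2-fold, beside 3.07%, at a median of -1.37.

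The 3 genes of the class I molecule had their highest signal on the control array with TNF. On the cKO-labelled arrays H2-K1 was brighter with TNF past the spot spread under each scaling and normexp, and H2-D1 and B2m under the 75th percentile scaling alone. H2-K1, on chromosome 17, encodes the classical heavy chain K, and its signal was 21.5 in control cells without TNF, 40.8 with TNF, 19.7 on the cKO-labelled array without TNF and 28.0 on that with TNF. The 2 arrays without TNF were close to each other, and the 2 with TNF were not. The difference with TNF was 0.92 in control cells and 0.51 on the cKO-labelled arrays, and the cKO-labelled array differed from that of control cells by -0.13 without and -0.54 with TNF. This probe was printed 10 times, which shows how well 1 array measures it. Its spots ran from 19.1 to 22.7 in control cells without TNF and from 37.5 to 43.2 with TNF, and on the cKO-labelled arrays from 17.9 to 20.7 and from 26.0 to 30.0. The ranges of the 2 arrays without TNF overlapped, while each array with TNF lay apart from the other 3. The second H2-K1 probe, on 1 spot that fell in a patch on the control array without TNF, read 9.69, 16.6, 9.25 and 11.2 in the same order. It gave the same order of the arrays, with 0.78 and 0.28 for TNF in the 2 genotypes and -0.07 and -0.56 between the genotypes.

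**Figure D1:**
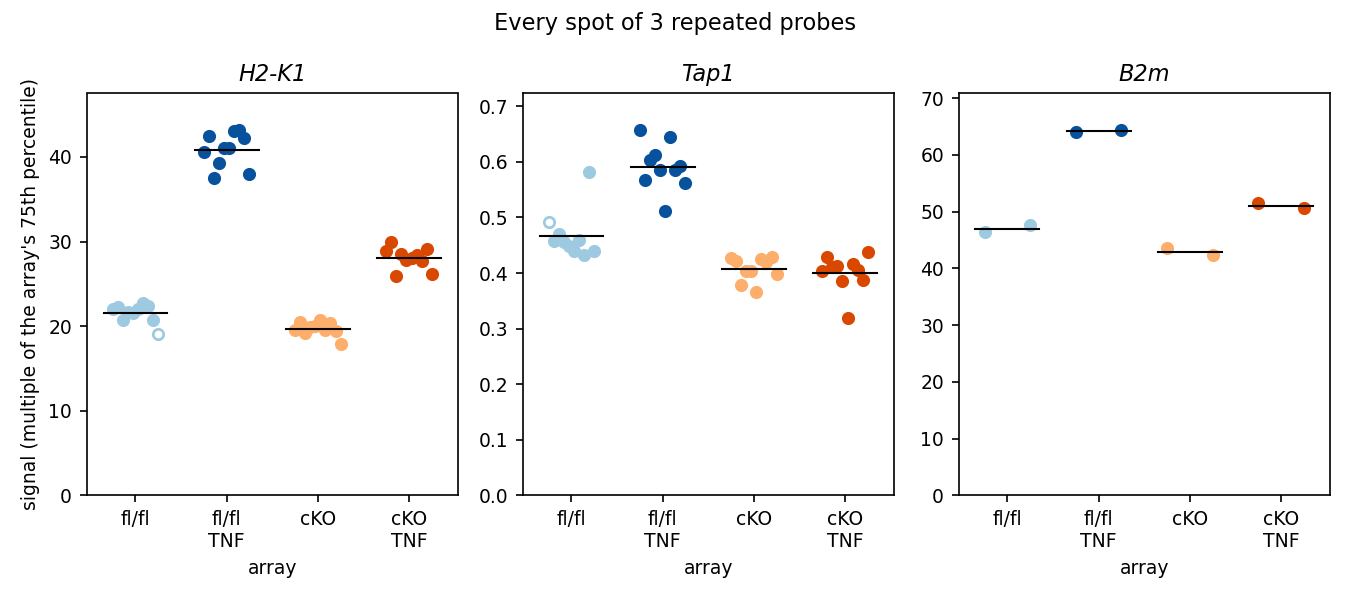
Signal of every spot (y axes, multiple of the array's 75th percentile, starting at 0) of the probes for H2-K1 and Tap1, printed 10 times, and B2m, printed 2 times, on the control arrays (fl/fl, control) and the cKO-labelled ones, without and with TNF. Filled points are spots, open points are spots in a bright patch and lines are the mean over log2 values; for H2-K1 the spots of control cells with TNF lie from 37.5 to 43.2, above all spots of the other arrays.

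H2-D1, also on chromosome 17, encodes the classical heavy chain D. Its single spot read 16.5 in control cells without TNF, 24.6 with TNF, 16.6 on the cKO-labelled array without TNF and 19.5 on that with TNF, and the 24.6 came from a spot in a bright patch. The arrays without TNF were alike, at a difference of 0.01, and those with TNF differed by -0.34. TNF went with a difference of 0.58 in control cells and of 0.23 on the cKO-labelled arrays, the latter 0.10 to 0.13 and inside the spot spread under other scalings and normexp. B2m, on chromosome 2, encodes beta 2 microglobulin, the light chain without which class I molecules do not reach the surface. Its signal was 47.0, 64.2, 42.9 and 51.0 in the same order, and the SD of its 2 spots on an array was at most 0.029 on the log2 scale. Here too the control array with TNF was the brightest, with differences for TNF of 0.45 and 0.25 and between genotypes of -0.13 and -0.33. The 0.25 was 0.07 to 0.14, inside the spot spread, under other scalings and normexp. The heavy chain genes of the mouse are near copies of each other, and a probe for one may bind the transcripts of others, so H2-K1 and H2-D1 signals may hold a part from their relatives.

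The promoters of these 3 genes are shown because the genes were brightest on the same array and because their control by NF-κB and by NLRC5 is well described. The stretches below run 5′ to 3′ on the strand of the gene and were taken from RefSeq windows from 250 bases before to 50 bases after each start on GRCm38.p6. They lie at chr17:34000354-34000468 (minus strand) for H2-K1, chr17:35262913-35263050 (plus strand) for H2-D1 and chr2:122147538-122147643 (plus strand) for B2m. Capitals mark matches, on either strand, to the NF-κB (kappaB) consensus, to the interferon stimulated response element GAAANNGAAA, to the CRE core TGACG and to CCAAT. Only exact matches to these letters are marked, so lower case does not show that an element is absent.
H2-K1: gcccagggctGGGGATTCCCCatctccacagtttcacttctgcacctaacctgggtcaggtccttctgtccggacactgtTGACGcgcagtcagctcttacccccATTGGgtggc
H2-D1: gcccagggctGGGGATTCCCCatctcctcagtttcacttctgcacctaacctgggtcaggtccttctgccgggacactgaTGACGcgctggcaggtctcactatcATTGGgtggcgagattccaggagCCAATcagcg
B2m: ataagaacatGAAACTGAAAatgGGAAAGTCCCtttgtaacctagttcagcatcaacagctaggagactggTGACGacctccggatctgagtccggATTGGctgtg
The kappaB consensus is close to a palindrome, and in H2-K1 and H2-D1 1 stretch of 11 bases matched it on both strands and at 2 offsets, from position -111 to -101 in H2-K1 and from -171 to -161 in H2-D1, counted from 0 at the annotated start. Over the 115 bases of the H2-K1 stretch, H2-D1 had the same base at 104, or 90.4%. B2m had its kappaB match on the minus strand from -126 to -117, next to a GAAANNGAAA match from -139 to -130. A kappaB match was found in 4.51% of all 32851 promoter windows, GAAANNGAAA in 3.44%, TGACG in 20.8% and CCAAT in 37.4%. These matches describe letters and do not show that a factor bound there.

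Peptide transport and loading followed, with TAP and tapasin brightest in control cells with TNF and dimmest on a cKO-labelled array. Tap1 and Tap2, both on chromosome 17, encode the chains of the transporter. Tap1 read 0.466 in control cells without TNF, 0.591 with TNF, 0.407 on the cKO-labelled array without TNF and 0.40 on that with TNF. The control array with TNF was the brightest, and the 2 cKO-labelled arrays were the dimmest and close to each other. Its difference for TNF was 0.34 in control cells, just inside the spot spread, a limit for single spots while Tap1 had 10. On the cKO-labelled arrays it was -0.03, where the direction turned with the scaling (0.10 after quantile normalization). The 10 spots ran from 0.433 to 0.581 and from 0.512 to 0.657 in control cells without and with TNF, so these ranges overlapped, and on the cKO-labelled arrays from 0.366 to 0.428 and from 0.318 to 0.437. With TNF the ranges of the 2 genotypes did not overlap, at a difference of -0.56, and without TNF, where they did not overlap either, the difference was -0.20.

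Tap2 read 5.92, 8.41, 4.48 and 5.12 in the order control, control with TNF, cKO-labelled, cKO-labelled with TNF. Both cKO-labelled arrays were dimmer than both of control cells, at -0.40 without and -0.72 with TNF, and the differences for TNF were 0.51 and 0.19, the latter inside the spot spread at 0.08 to 0.09 under other scalings. Tapbp, on chromosome 17, encodes tapasin, which holds the empty class I molecule at the transporter until a peptide fits. It read 5.87, 11.2, 5.09 and 6.26 in the same order, so that 1 array, of control cells with TNF, stood far above the others. For Tapbp the difference for TNF was 0.93 in control cells and 0.30 on the cKO-labelled arrays, and that between the genotypes was -0.20 without TNF, which was -0.16 and inside the spot spread without scaling, and -0.84 with TNF.

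**Figure D2:**
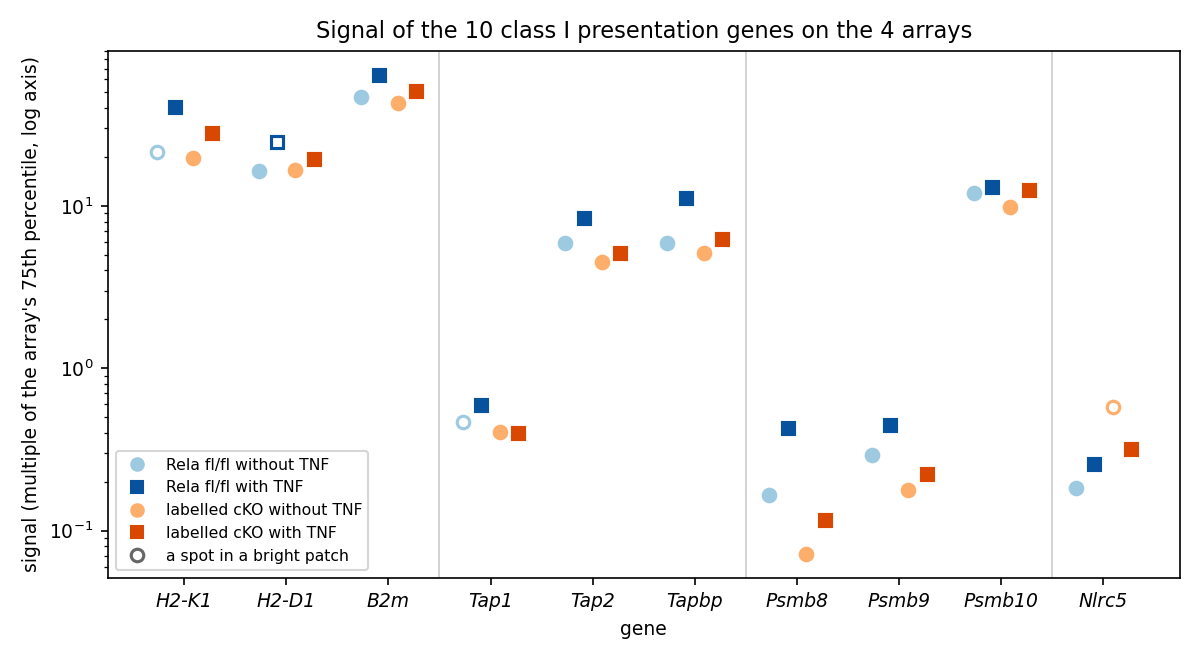
Signal (y axis, multiple of the array's 75th percentile, log axis) of the probe that stands for each of the 10 genes (x axis) on the 4 arrays, with circles without and squares with TNF, blue for Rela fl/fl (control) and orange for labelled cKO, and open symbols where a spot lay in a bright patch. Symbols are to be compared within a gene; the control array with TNF is the highest for every gene except Nlrc5.

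The immunoproteasome held both the gene with the greatest difference among the 10 and the one least touched by TNF in control cells. Its 3 catalytic subunits replace those of the standard proteasome and favour peptides that bind class I molecules. Psmb8, on chromosome 17, encodes LMP7 and read 0.164 in control cells without TNF, 0.425 with TNF, 0.0718 on the cKO-labelled array without TNF and 0.116 on that with TNF. The 2 cKO-labelled arrays lay below both of control cells, although the signal was dim on all 4. The difference for TNF was 1.37 in control cells and 0.69 on the cKO-labelled arrays, and the cKO-labelled array differed from the control by -1.20 without and -1.87 with TNF. The first of these genotype differences was -0.55 when background was corrected by normexp, and the second -1.18.

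Psmb9, on chromosome 17 and encoding LMP2, read 0.291, 0.446, 0.177 and 0.223 in the same order, which is the order of the arrays seen for Psmb8. Its differences for TNF were 0.62 in control cells and 0.33 on the cKO-labelled arrays, the latter inside the spot spread and past it after quantile normalization and under normexp. Between the genotypes they were -0.71 without and -0.9982 with TNF, and -0.50 and -0.66 under normexp. Psmb10, on chromosome 8, encodes MECL-1, and it was the exception of the 3, at 11.9, 13.05, 9.86 and 12.5. Its TNF difference was 0.13 in control cells, inside the spot spread, and 0.34 on the cKO-labelled arrays, and its genotype difference was -0.27 without and -0.06 with TNF.

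Tap1 and Psmb9 start 226 bases apart on opposite strands, and the promoter stretch between them is shown because both genes take part in the pattern. It lies at chr17:34187331-34187555 and is written on the plus strand, that of Tap1, again from RefSeq on GRCm38.p6. Beside it stands a stretch of the Psmb8 promoter, at chr17:34198078-34198126 (plus strand), shown because Psmb8 had the greatest genotype difference. Capitals mark CCAAT and TGACG in the first and the gamma activated sequence TTCNNNGAA, a palindrome that matches on both strands, in the second.
Tap1 and Psmb9: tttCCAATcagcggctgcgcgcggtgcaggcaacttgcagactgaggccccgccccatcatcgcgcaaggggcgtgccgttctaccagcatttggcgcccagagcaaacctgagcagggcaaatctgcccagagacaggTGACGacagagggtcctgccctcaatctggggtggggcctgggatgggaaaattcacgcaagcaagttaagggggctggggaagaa
Psmb8: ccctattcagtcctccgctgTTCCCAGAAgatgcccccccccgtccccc
TTCNNNGAA was found in 8.3% of all windows. The letters of the kappaB consensus and of GAAANNGAAA were not found in the windows of Tap1, Psmb9, Psmb8, Tapbp or Psmb10, which covers these windows only.

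Nlrc5, on chromosome 8, encodes the transactivator that drives class I genes, and its 2 probes gave different pictures. The brighter probe read 0.183 in control cells without TNF, 0.256 with TNF, 0.573 on the cKO-labelled array without TNF and 0.319 on that with TNF. It was highest on the cKO-labelled array without TNF, unlike any other of the 10 genes, and there its spot lay in a bright patch. The differences were 0.49 and -0.85 for TNF in the 2 genotypes and 1.65 and 0.32 between the genotypes, without and with TNF. The other probe read 0.0401, which was not well above background, and then 0.0571, 0.0451 and 0.0624 in the same order. It had no spot in a patch and gave 0.47 for TNF on the cKO-labelled arrays, the opposite direction, and 0.13 between the genotypes with TNF. For TNF in control cells it gave a difference of at least 0.12, against the lowest signal well above background there, and without TNF no fold between the genotypes. The probes thus gave the same direction for TNF in control cells and between the genotypes with TNF, the latter inside the spot spread for both, and not for TNF on the cKO-labelled arrays. All values of the dimmer probe were inside its spot spread.

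Set side by side, the 10 genes had higher signals with TNF in control cells. Of the 10 genes, 1 (Psmb8) was 2-fold higher and 0 were 2-fold lower, while 2.39% and 4.26% of all 23406 genes tested were. Among named genes with no spot in a patch, as for Psmb8, these shares were 0.615% and 0.517%, and in the other 3 comparisons they ran from 0.351% to 1.15%. Past the spot spread 8 were higher and 0 lower, while 11.5% and 10.9% of all genes were. All 10 differences were above 0, as were 51.8% over all genes, and the median was 0.54 beside 0.01. Tap1 and Psmb10 were the genes that stayed within the spot spread, which is wide for the 10 spots of Tap1.

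**Figure D3:**
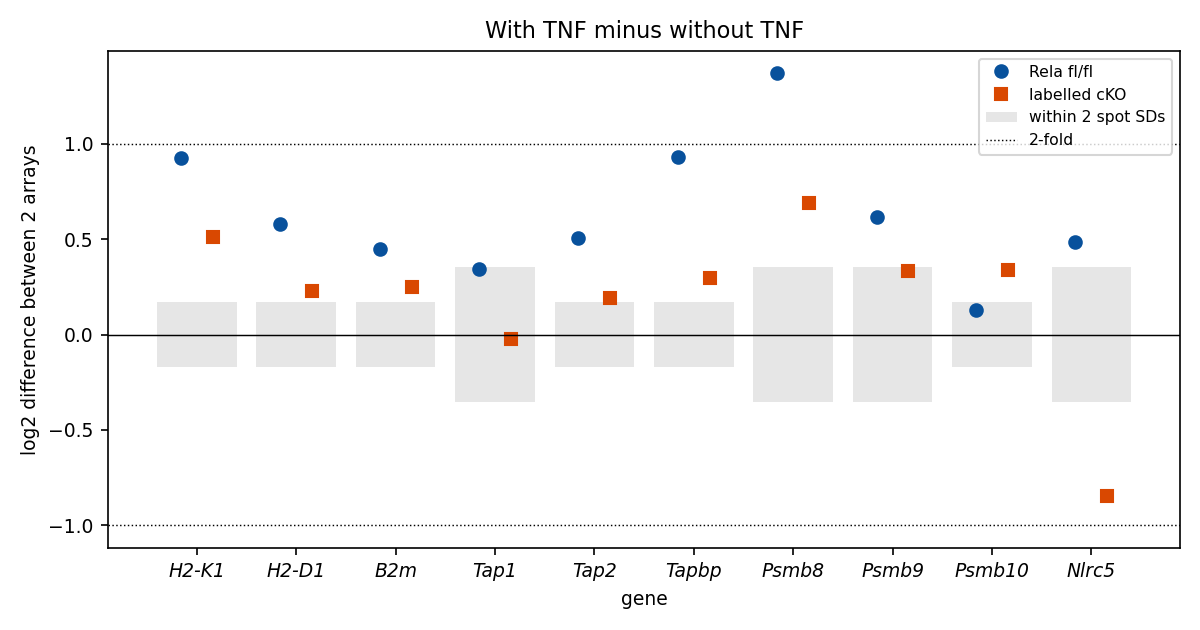
Log2 difference with TNF minus without TNF (y axis) for each of the 10 genes (x axis), in control cells (blue circles) and on the cKO-labelled arrays (orange squares). Grey bands span 2 SDs of spots either way and dotted lines 2-fold; blue circles are all above 0, from 0.13 for Psmb10 to 1.37 for Psmb8, and lie above the orange squares except for Psmb10.

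On the cKO-labelled arrays the differences with TNF were smaller. Of the 10 genes, 0 were 2-fold higher, where 0.759% of all 24902 genes tested were, and 0 were 2-fold lower, where 4.26% were. Past the spot spread 7 were higher and 1 lower, beside 16.4% and 12.0% of all genes. The 1 lower was Nlrc5, whose spot without TNF lay in a patch. With patches left out 7 of 9 were higher and 0 lower, beside 18.1% and 5.81% of named genes with no spot in a patch. Of these 7, Nlrc5 (0.47) counts by the limit of its brighter probe and lies inside that of its dimmer probe (0.66). Of the 10 differences, 8 were above 0, where 59.9% of all genes were. The median of the 10 was 0.27 and that of all genes 0.06, which was 0.04 after quantile normalization, 0.03 under normexp, -0.04 without scaling and -0.05 in the authors' scaled values. Taken relative to the median of all genes, the median of the 10 was 0.22 here and 0.11 to 0.21 under quantile normalization, normexp, no scaling and the authors' values, with 4 to 6 genes past the spot spread on the higher side. The share of all genes past the spot spread was not computed for these settings. Single values depended on the processing here: H2-D1, B2m, Tap2 and Tapbp were at 0.10, 0.07, 0.08 and 0.19 where lowest, Psmb8 ran from 0.42 under normexp to 0.98 after quantile normalization and Psmb9 from 0.22 in the authors' values to 0.53 after quantile normalization. H2-K1 and Psmb8 had the greatest differences upward, at 0.51 and 0.69.

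For 9 of the 10 genes the difference with TNF was greater in control cells than on the cKO-labelled arrays, and for 7 of 9 with spots in patches left out. There the other probe stands for Nlrc5, and its difference in control cells is a lower bound, so the sign of its gap is not known. The gap between the 2 differences was 0.41 for H2-K1, 0.35 for H2-D1, 0.20 for B2m, 0.37 for Tap1, 0.31 for Tap2 and 0.63 for Tapbp. It was 0.68 for Psmb8, 0.28 for Psmb9, -0.21 for Psmb10 and 1.33 for the brighter probe of Nlrc5. The median was 0.36, and over the 20481 genes well above background on all 4 arrays it was -0.05, with 41.2% above 0. With 1 array per condition this gap could not be tested.

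Without TNF the genotypes differed in the proteasome subunits and Tap2 more than in the class I molecule. Of the 10 genes, 1 (Nlrc5, the spot in a patch) was 2-fold higher on the cKO-labelled array and 1 (Psmb8) 2-fold lower, where 3.53% and 4.14% of all 24276 genes tested were. Under normexp Psmb8 was at -0.55, short of 2-fold. Past the spot spread 1 was higher and 5 lower (Tap2, Tapbp and the 3 immunoproteasome subunits), beside 15.0% and 13.2% of all genes. The differences of H2-K1, H2-D1 and B2m were all within the spot spread, from -0.13 to 0.01, a limit that is wide for the 10 spots of H2-K1. Of the 10 differences, 8 were below 0, where 44.6% of all genes were, and the median was -0.20 beside 0.01 over all genes.

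With TNF, 8 of the 10 genes had lower signals on the cKO-labelled array past the spot spread, all but Psmb10 and Nlrc5. The H2-D1 spot of control cells with TNF lay in a patch. With patches left out 7 of 9 were lower past the spot spread, beside 9.02% of named genes with no spot in a patch. Of the 10 genes, 1 (Psmb8) was 2-fold lower and 0 were 2-fold higher, where 3.07% and 1.17% of all 24511 genes tested were. None of the 10 was higher past the spot spread, while 11.0% of all genes were lower and 16.7% higher past it. The median was -0.55, against 0.06 over all genes. In the same comparison 9 of the 10 differences were below 0, as were 38.1% over all genes. These 2 genotype comparisons share no array with each other, but each shares its arrays with the TNF comparisons, so the high signal of the control array with TNF enters both its comparisons.

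**Figure D4:**
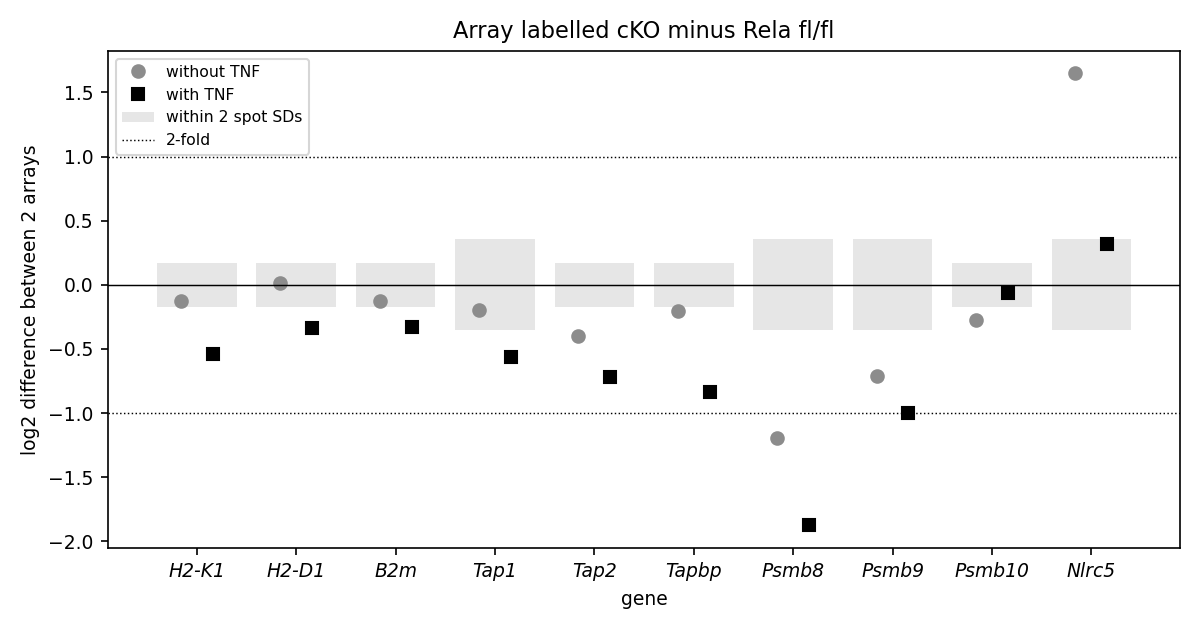
Log2 difference of the cKO-labelled array minus that of control cells (y axis) for each of the 10 genes (x axis), without TNF (grey circles) and with TNF (black squares). Grey bands span 2 SDs of spots either way and dotted lines 2-fold; 8 squares lie below the bands, down to -1.87 for Psmb8. The Nlrc5 circle at 1.65 comes from a spot in a bright patch, as does the control signal behind the H2-D1 square.

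The rest of the class I pathway was read from lists of genes. Of 22 other class I and class I-like heavy chains, 18 had a probe and 14 were well above background. With TNF in control cells, 8 of the 14 were higher past the spot spread and 0 lower, with a median of 0.44. On the cKO-labelled array with TNF, 7 were lower than in control cells and 1 higher, with a median of -0.36, and 0 of the 14 were past 2-fold in any comparison. H2-Q2 read 16.2, 25.9, 14.9 and 17.0 in the order used above, which is the order of the arrays of H2-K1. H2-Q4 departed from it, at 23.6, 24.7, 38.0 and 28.0, with its highest signal on the cKO-labelled array without TNF.

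Partners in loading and trimming were read over 11 genes. Their median was 0.06 for TNF in control cells and 0.16 for TNF on the cKO-labelled arrays, where 4 of the 11 were higher past the spot spread and 0 lower, and where the median was 0.02 to 0.05 under other scalings and normexp. Between the genotypes it was -0.08 without TNF and 0.02 with TNF, the latter turning to between -0.07 and -0.04 under every other scaling and normexp. Hspa5, the chaperone BiP, read 113, 114, 92.9 and 114, the third from a spot in a patch, and Canx, the chaperone calnexin that holds new heavy chains, 52.0, 53.7, 47.4 and 54.3, the second in a patch. Erap1, the aminopeptidase that trims peptides in the endoplasmic reticulum and named here after its values were seen, read 0.0792, 0.147, 0.0738 and 0.102. Its differences were 0.90 and 0.47 for TNF and -0.10 and -0.53 between the genotypes, and with a signal this dim only the first was past the spot spread, and at 0.51 under normexp inside it.

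The standard catalytic subunits that the immunoproteasome replaces were nearly flat with TNF in control cells. Psmb5 read 112 on both arrays of control cells, then 109 and 127 on those labelled cKO without and with TNF. Psmb6 read 71.8, 68.5, 71.3 and 76.2, and Psmb7 10.5, 11.2, 10.8 and 12.4, in the same order. For TNF in control cells all 3 were within the spot spread, with a median of 0.00 (-0.12 under normexp), where Psmb8, Psmb9 and Psmb10 had a median of 0.62. On the cKO-labelled arrays their median for TNF was 0.20, with 2 of 3 past the spot spread, and -0.01 under normexp. Between the genotypes with TNF the 3 were at 0.15 to 0.18, of which Psmb5 alone was past the spot spread, and their median of 0.15 was 0.05 to 0.09 under other scalings and normexp, with none past it. The 16 genes of the proteasome core and its assembly gave -0.05 for TNF in control cells and 0.15 between the genotypes with TNF (0.07 to 0.09 under other scalings and normexp), with 0 lower past the spot spread in either and 3 higher in the second. For TNF on the cKO-labelled arrays 9 of the 16 were higher past it, at a median of 0.18 (0.04 to 0.07 under other scalings and normexp), and between the genotypes without TNF 5 were lower, at -0.07.

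The proteasome activators lay between these groups. Psme1 and Psme2, the subunits of the PA28 cap that interferon induces, read 6.97, 8.69, 6.84 and 7.84 (some spots in patches), and 35.1, 42.0, 33.0 and 40.2. Their differences for TNF were 0.32 and 0.26 in control cells and 0.20 and 0.28 on the cKO-labelled arrays, and both genes were within the spot spread between the genotypes, but Psme1 with TNF, at -0.15, was at -0.22 to -0.19 and past it under other scalings and normexp. Over all 4 activators the median for TNF on the cKO-labelled arrays was 0.24, and 0.10 to 0.14 under other scalings and normexp, where Psme1 was inside the spot spread in each and Psme2 in all but the values without scaling. Psme3, a nuclear activator, read 3.71, 4.23, 3.86 (a spot in a patch) and 4.76. Psme4, which encodes PA200, read 0.893, 0.962, 0.949 and 0.997.

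**Figure D5:**
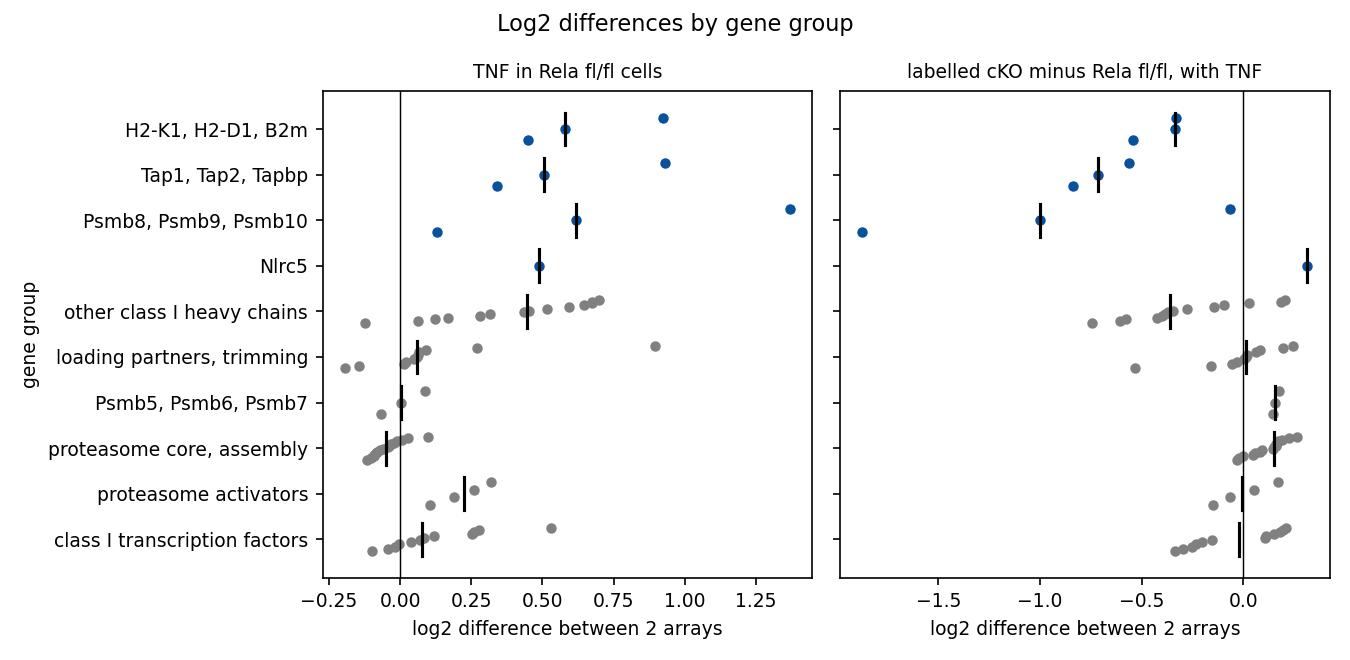
Log2 differences (x axes) of each gene (points) by group (y axis), for TNF in control cells (left) and for the cKO-labelled array minus Rela fl/fl with TNF (right). Lines mark medians and blue the 10 genes; the other class I heavy chains have medians of 0.44 and -0.36, while Psmb5, Psmb6 and Psmb7 lie near 0 on the left and at 0.15 to 0.18 on the right, where their median falls to 0.05 to 0.09 under other scalings and normexp.

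Among the factors that control the pathway, 3 of the 4 NF-κB subunits tested (Rela, Relb and Nfkb2) were brighter past the spot spread with TNF in each genotype. Rela on the cKO-labelled arrays, at 0.24, was at 0.08 to 0.14 and inside the spot spread under other scalings and normexp. Relb, which partners p52, read 1.48, 3.0, 1.3 and 1.93, with differences of 1.02 and 0.57 for TNF and -0.19 and -0.64 between the genotypes. Nfkb2, the precursor of p52, read 1.49, 2.5, 1.47 (a spot in a patch, without which its cKO-labelled TNF value is lost) and 2.33, and Nfkb1, the precursor of p50, 0.534, 0.595, 0.494 and 0.505, with differences for TNF inside the spot spread. Rel was not well above background on any array. Irf1, an interferon regulatory factor that acts on class I genes, read 3.47, 5.0, 3.35 and 4.07, the third from a spot in a patch, with differences of 0.53 and 0.28 for TNF, the latter 0.14 to 0.20 under other scalings and normexp. Nfyc, a subunit of the factor that binds CCAAT, read 10.6, 10.5, 10.8 and 11.4. Over the 14 listed class I transcription factors, 12 or 13 were tested and their medians ran from -0.03 to 0.08 over the 4 comparisons, with directions that turned without scaling or under normexp in all but that of TNF in control cells.

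Interferon transcripts were looked for as well, since interferon is the best known inducer of these 10 genes. Ifnb1, Ifng and Ifna4 were not well above background on any of the 4 arrays. The receptor chain Ifngr2 read 5.52, 8.40, 5.42 and 7.34, the third from a spot in a patch, and Ifnar2 6.79, 7.60, 6.39 and 6.92, the first in a patch, so both were present on all arrays and Ifngr2 was brighter with TNF by 0.61 and 0.44.

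Class II and other cell types were set beside the class I genes, because cells of the immune lineage carry high class I levels. In bulk RNA, fewer cells of a type and less RNA per cell cannot be told apart. Of 11 class II pathway genes, 6 were tested in each comparison. H2-Ab1, a class II beta chain, read 7.25, 10.3, 5.28 and 6.61, H2-DMa 1.15, 1.22, 0.989 and 1.02, and Cd74, the invariant chain, 0.0739, 0.127, 0.0651 and 0.0475. Of these, the first value of H2-Ab1, the first and second of H2-DMa and the second and the third of Cd74 came from spots in patches. H2-Ab1 thus had its highest signal on the control array with TNF, as the class I genes did, while H2-Aa, its partner chain, was not well above background on any array.

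Of 12 leukocyte markers 11 had a probe, and 7 to 9 were well above background on an array, with summed signals of 41.8, 38.3, 46.5 and 38.1, sums in which bright probes weigh more. Itgam read 31.8 to 40.3 over the arrays and Csf1r 2.79 to 3.05. Ptprc, which encodes CD45, was not well above background on any array. Lyz2 read 0.658 (a spot in a patch), 0.246, 0.153 and 0.128, and Tyrobp 0.118 and 0.0594 in control cells and 0.0386 and 0.0404 on the cKO-labelled arrays, so both were highest in control cells without TNF. Laptm5 was well above background only in control cells, at 0.0686 and 0.195, the latter in a patch, and Adgre1 was high at 0.577 only on the cKO-labelled array without TNF, also in a patch. Of 6 endothelial markers 2 or 3 were well above background on an array (sums 17.9 to 20.8), with Cdh5 and Tie1 on none. The 6 fibroblast markers were all well above background and summed to 639, 652, 588 and 570, and Thy1 was lower by 1.59 on the log2 scale on the cKO-labelled array without TNF. With TNF the fibroblast markers were lower under the cKO label in 6 of 6, 5 of them past the spot spread, at a median of -0.32, beside -0.34 for the class I molecule. The chondrocyte markers were lower on the cKO-labelled array without TNF in 10 of 10, with a median of -0.41 and Matn1 at -1.85. With TNF they were lower in 9 of 10, 5 past the spot spread, at a median of -0.23. The part of any of these cell types in the class I differences was not tested.

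Over the 4 arrays, the median profile of the 10 genes, with each gene centred on its own mean, was -0.05, 0.45, -0.31 and -0.05. The 8 genes nearest to it by Euclidean distance, out of 9653 named genes outside patches, were Dtx3l, Nfil3, Fblim1, H2-M3, Egln3, Fbln2, Prrg1 and Ankrd37, at distances of 0.0482 to 0.109. Dtx3l, a ubiquitin ligase, read 0.331, 0.447, 0.270 and 0.324, and H2-M3, a heavy chain that presents formylated peptides, 0.682, 0.933, 0.559 and 0.708. With 4 arrays such nearness is a description of shape only. Of the 10 genes themselves, B2m and Tap2 were nearest to their median profile, at 0.160 and 0.181, and Nlrc5 and Psmb8 farthest, at 1.58 and 1.34.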

How the data were processed

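RNA of primary chondrocytes was hybridised to 4 Agilent arrays of 1 colour, 1 per combination of genotype and TNF, all on 1 slide and in 1 scan. The authors deposited each spot's intensity as processed by Agilent Feature Extraction 10.10.1.1 (submitters' processing notes), which subtracts background and flags outliers and spots well above background, and a table of scaled intensity values that equals the processed intensity times 1.77 to 1.83 per array, on a basis not given in the sources used here. From the processed intensity of the 59305 transcript spots per array, log2 values were taken and the 75th percentile of the array subtracted. Outlier spots (138 to 225 per array) were left out, spots of a probe averaged, and the probe brightest over the 4 arrays stood for a gene. Symbols came from the RefSeq table of GRCm38.p6 (20431 of 20809 NM accessions matched), while the array design names another assembly, from which no coordinates were taken. No spot was saturated.

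A difference was counted at 2-fold where the brighter array was well above background, with a dimmer signal not well above background raised to the higher of itself and the lowest such signal of its array, which makes that difference a lower bound. The spot spread came from 399 probes with 10 spots. Patches were found from spots 2-fold or more above the same spot on all remaining arrays, and a spot counted as inside one when at least 3 such spots were among its 54 neighbours (5 rows and 2 columns either way). The number of arrays limits the precision, and no p-values were computed. The counting code was run on simulated data with changes set beyond the limit in bright genes only, which does not test dim genes or the present differences. Alternatives in scaling, background (normexp on the median spot intensity, offset 50, then quantile normalization), filter, probe, limit and patches are given in the closing section. The 10 genes, the lists and the naming rule were chosen with earlier results of these data known. The rule names all 10 genes with every probe, every catalytic subunit, activator and NF-κB subunit, and from each other list the genes past 2-fold and the 2 brightest, with the check lists (chondrocyte, TNF response, sex, fibroblast, endothelial) given mainly by counts. Promoters were missing for Tap2 and Nlrc5. Python 3.11.15 with numpy 2.4.6, pandas 2.3.3 and matplotlib 3.10.9 and R 4.3.3 with limma 3.58.1 were used.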

Additional observations from a re-analysis of the deposited data

Results flagged for a closer look

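Tap1 and the brighter Nlrc5 probe had differences with TNF in opposite directions in the 2 genotypes, which is why they are listed here, and whether the genotypes differ in this was not tested. For Tap1 it was 0.34 in control cells and -0.03 (-0.0252) on the cKO-labelled arrays, both within the spot spread. For Nlrc5 it was 0.49 in control cells and -0.85 on the cKO-labelled arrays, with the spot on the cKO-labelled array without TNF in a bright patch.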

How the results depend on the processing

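Of 160 values of the 10 genes under no scaling, quantile normalization, the authors' scaled values and normexp, 128 moved by less than 1 SD of a difference between spots and 32 by more. The filters on dim probes could move none, since all 10 genes were well above background on the 4 arrays. The value past the spot spread that reversed was that of Nlrc5 for TNF on the cKO-labelled arrays, from -0.85 to 0.47 with spots in patches left out, where its other probe stands for the gene. The number of the 10 genes past the limit between the genotypes with TNF was 1, and 2 without scaling and in the authors' scaled values, where Psmb9 passes 2-fold (3.36% and 3.35% of all genes lower), and 4 at a 1.5-fold limit, all lower, beside 5.58% of all genes. Psmb9 was at -0.66 there under normexp. Without TNF it was 2 between the genotypes, and 3 at 1.5-fold (1 higher and 2 lower, beside 7.16% and 6.43% of all genes). It was 1 under normexp and at a 3-fold limit, higher (Nlrc5, beside 1.85% and 1.9% of all genes). With the mean over probes and with patches left out it was 1, lower (Psmb8). Beside these stand 4.14% of all genes, by the brightest probe of each, and 0.86%. For TNF it was 1 in control cells, 4 at 1.5-fold, all higher, beside 4.37% of all genes, and 0 at 3-fold, where 1.63% were higher and 3.05% lower. On the cKO-labelled arrays it was 0, and at 1.5-fold 2, of which 1 was higher and 1 lower, beside 2.49% and 8.16%. The median gap between the TNF differences of the 2 genotypes was 0.31 to 0.47 under the alternatives, beside 0.36. With patches left out 7 of 9 gaps were above 0, and 9 of 10 otherwise. The Nlrc5 gap with patches left out rests on a lower bound and has no known sign, and the 0.31 was taken with that bound. Tap1 for TNF on the cKO-labelled arrays, at -0.03 and inside the spot spread, turned to 0.10 after quantile normalization and 0.06 under normexp. With patches left out, H2-D1 had no value for control cells with TNF. In the control comparison of TNF 6 of the other 9 genes were higher past the spot spread, beside 10.3% of named genes with no spot in a patch. No paired analysis was possible because the labels pair no replicates and each condition has 1 array. Signals under 0.1 (Psmb8 on the cKO-labelled array without TNF, the second Nlrc5 probe) are the least precise.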
